A study of Mus musculus with 2 samples.

Results

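The 10 genes described here encode the 5 subunits of the transcription factor NF-κB (*Nfkb1*, *Nfkb2*, *Rel*, *Rela*, and *Relb*), the inhibitors of the IκB family *Nfkbia*, *Nfkbib*, *Nfkbie*, and *Nfkbiz*, and *Tnfaip3*, which encodes A20. They were taken by symbol from the counts of 48321 genes, and all 10 were found in both libraries. The RNA came from mature thymocytes of mice called *MHC-II*o:*CD8ab-Tg* on a C57Bl/6 background, and 2 replicates form the single group. These mice lack I-Aβ, a chain of MHC class II (*I-Ab*-/-), and coding parts of both endogenous *Cd8* genes (*Cd8* Δab/Δab), and carry cDNAs of CD8α and CD8β in the *Rosa26* locus (*Rosa26* 8a/8b) that Cre driven by *Cd4* switches on in thymocytes. The library titles name CD4-CD8- cells, the cell type fields name CD8+ cells, and the methods of the study name CD4- mature thymocytes, so the sorted cells are called CD4- mature thymocytes here. Age, and the number of mice behind a library, are not given in the sources used here. Both libraries come from the same genotype, so the values below are levels and not changes, and no comparison with other mice was made.

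NF-κB proteins act as pairs. p50, made from the *Nfkb1* product p105, RelA, and c-Rel form the pairs of the canonical pathway, which the inhibitors IκBα, IκBβ, and IκBε hold in the cytoplasm until the IκB kinase (IKK) complex marks them for degradation. In the non-canonical pathway, NF-κB-inducing kinase leads to the processing of p100, the *Nfkb2* product, to p52, which pairs with RelB. In thymocytes, signals from the TCR, CD28, and receptors of the TNF family feed these pathways, which are known for their roles in the survival and maturation of single-positive thymocytes and in the development of iNKT cells. IκBα and A20 are themselves products of NF-κB target genes and limit the response.

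In replicate 1, 16732644 reads were counted on genes, and in replicate 2, 16245849. Levels are given as CPM, the counts per 1000000 of these totals, and a floor of 3 counts stood at 0.179 CPM in the first library and 0.185 CPM in the other. *Gm42418* and *Rn18s-rs5*, which lie in repeated ribosomal DNA, held 13.6% of the total in the first and 10.8% in the other. All 10 markers of αβ T cells had at least 1 CPM in both libraries, with summed levels of 4706 and 4665 CPM. *Cd4* had 12 and 27 counts, and *Cd8a*, which can also take reads of the inserted cDNA, had 2647 and 2784. *Cd8b1*, which can likewise take reads of its inserted cDNA, had 12969 and 12762 counts, or 775 and 786 CPM. The titles of these libraries name CD8- cells. Reads of the cDNAs and of what is left of the endogenous *Cd8* genes cannot be told apart here. Because dendritic cells, B cells, and thymic epithelium use NF-κB strongly, their markers were summed as well. The 14 markers of dendritic cells and macrophages reached 21.4 and 22.6 CPM, and 5 of the 14 passed 1 CPM in each library. *Csf1r* led them with 163 and 191 counts, ahead of *Cd68*, *Zbtb46*, and *Xcr1* with 39 to 51 counts each, while *Clec9a* was at 0 in both libraries. The 8 thymic epithelial markers reached 4.48 and 5.42 CPM, most of it *Epcam*, with 50 and 53 counts, while *Aire* had 3 counts in each library. The 8 B cell markers reached 147 and 152 CPM, of which *Ighm* held 133 and 136 CPM and *Cd79b* 11.7 and 14.0 CPM, while *Pax5* had 1 and 0 counts. The 6 erythroid markers reached 0.478 and 0.616 CPM, all of it *Alas2*. Of the 6 markers of double-positive thymocytes, 3 had at least 1 CPM in both libraries and their sums were 18.6 and 17.2 CPM, most of it *Dntt*. In such bulk samples, fewer cells that express a gene and less RNA per cell cannot be told apart.

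NF-κB binds a DNA sequence of 10 bases, the κB consensus, and several of its own genes are textbook targets of it. The RefSeq promoter table of GRCm38 (the build of mm10) held windows from 250 bases before to 50 bases after the start for 7 of the 10 genes, namely *Nfkb2*, *Rel*, *Rela*, *Nfkbia*, *Nfkbib*, *Nfkbie*, and *Tnfaip3*. *Nfkb1*, *Relb*, and *Nfkbiz* are without an entry. The consensus was taken as GGGRNNYYCC, where R is A or G, Y is C or T, and N is any base. Searched on both strands, it was found in a window of 5 of these 7 genes, or 71.4%, against 9.55% of the 27025 genes in the table. Of the 10 windows of these genes 7 held a match, against 8.46% of all 32851 windows. The shares over the table were not matched for windows per gene or for base content. The 30-base stretches below are shown because they are the letters in which these 5 genes differ from *Rela* and *Nfkbib*, and are written 5′ to 3′ on the strand of the gene with the match in capitals.
Nfkbia: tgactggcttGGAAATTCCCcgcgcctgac
Nfkbie: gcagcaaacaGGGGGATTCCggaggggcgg
Rel: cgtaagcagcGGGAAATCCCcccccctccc
Tnfaip3, upper: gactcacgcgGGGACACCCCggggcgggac
Tnfaip3, lower: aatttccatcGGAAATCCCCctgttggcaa
Nfkb2, site 1: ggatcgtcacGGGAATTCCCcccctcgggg
Nfkb2, site 2: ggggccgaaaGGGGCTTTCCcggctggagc
Nfkb2, site 3: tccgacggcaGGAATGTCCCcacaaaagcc
Nfkb2, site 4: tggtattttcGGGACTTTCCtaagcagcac

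The stretch of *Nfkbia* is at chr12:55492657-55492686 on the minus strand, and its match begins 29 bases before the start. That of *Nfkbie* is at chr17:45555584-45555613 on the plus strand, 106 bases before the start. In *Rel*, at chr11:23771042-23771071 on the minus strand, the match begins 92 bases before the start and a second match overlaps it, shifted by 1 base. *Tnfaip3*, a gene of the minus strand, has 2 windows, and one of them held 2 separate sites. These are at chr10:19015516-19015545 and chr10:19015403-19015432 and begin 125 and 12 bases before the start. *Nfkb2*, with 3 windows on the plus strand, had 4 separate sites, at chr19:46304688-46304717, chr19:46304716-46304745, chr19:46305449-46305478, and chr19:46305695-46305724. Site 1 matched on both strands, and another match overlaps it, shifted by 1 base. Sites 1 and 2 begin 39 and 11 bases before the first start, and sites 3 and 4 begin 236 and 225 bases before the second and the last start. Site 4 is also in the window of the second start. All starts here are those of RefSeq. In GENCODE M21, from which the gene positions below are taken, *Tnfaip3* and *Nfkb2* begin further upstream, and these sites lie inside the genes. The consensus reads on the strand of the gene in *Nfkbie* and in sites 2 and 4 of *Nfkb2*. It reads on the opposite strand in *Nfkbia*, the lower site of *Tnfaip3*, and site 3 of *Nfkb2*. In *Rel*, the upper site of *Tnfaip3*, and site 1 of *Nfkb2* it reads on both. A match is a description of the letters. No binding was measured, and the absence of a match in *Rela* and *Nfkbib* says only that these letters are not in this window.

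Among the subunit genes, *Nfkb1* had the most counts, with 3671 and 4002 in the libraries of replicates 1 and 2. Its level was thus 219 and 246 CPM, or 233 ± 19.1 CPM (SD, n = 2). The gene runs along chromosome 3 of GRCm38 (minus strand, 135584655 to 135691547) and has 25 exons in its principal transcript in GENCODE M21. *Rela*, on chromosome 19 (plus strand, 5637483 to 5648130) with 11 exons, had 1562 and 1713 counts, or 93.4 and 105 CPM. It encodes RelA (p65), which carries a transactivation domain that p50 lacks, and its mean was 99.4 ± 8.55 CPM (SD, n = 2). For both genes replicate 2 was higher, and the Wilson 95% confidence intervals of the 2 libraries did not overlap, from 212 to 227 CPM against 239 to 254 CPM for *Nfkb1* and from 88.8 to 98.1 CPM against 101 to 111 CPM for *Rela*.

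*Rel* encodes c-Rel, the lymphoid partner of p50, on chromosome 11 (minus strand, 23736847 to 23770970). It had 998 and 960 counts, or 59.6 and 59.1 CPM, so that the libraries lay within each other's intervals and the mean was 59.4 ± 0.390 CPM (SD, n = 2). The 2 genes of the non-canonical pair were *Nfkb2*, on chromosome 19 (plus strand, 46304320 to 46312385), and *Relb*, on chromosome 7 (minus strand, 19606217 to 19629438). *Nfkb2* had 1119 and 1027 counts, which equalled 66.9 and 63.2 CPM, with a mean of 65.0 ± 2.59 CPM (SD, n = 2). *Relb* had 660 and 569 counts, equal to 39.4 and 35.0 CPM, and its mean was 37.2 ± 3.13 CPM (SD, n = 2). Both were lower in replicate 2, with overlapping intervals.

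Of the classical inhibitors, *Nfkbia*, which encodes IκBα, had 2110 and 1888 counts, or 126 and 116 CPM. Its mean was 121 ± 6.99 CPM (SD, n = 2), and the gene is short, on chromosome 12 (minus strand, 55489410 to 55492647) with 6 exons. *Nfkbib*, which encodes IκBβ, is on chromosome 7 (minus strand, 28758251 to 28767512) and had 554 and 572 counts, equal to 33.1 and 35.2 CPM. *Nfkbie*, which encodes IκBε, is on chromosome 17 (plus strand, 45555703 to 45563169) and had 622 and 522 counts, equal to 37.2 and 32.1 CPM. Their means were 34.2 ± 1.48 CPM for *Nfkbib* and 34.7 ± 3.56 CPM for *Nfkbie* (SD, n = 2). *Nfkbib* was higher in replicate 2 and *Nfkbie* in replicate 1, and for both genes the intervals of the libraries overlapped.

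*Nfkbiz* encodes IκBζ, an atypical member of the family that works in the nucleus and can help to activate target genes. It is on chromosome 16 (minus strand, 55811375 to 55838899) and had 993 counts in each library, or 59.3 and 61.1 CPM. *Tnfaip3*, on chromosome 10 (minus strand, 19000910 to 19015657), encodes the ubiquitin-editing enzyme A20 and had 1277 and 1241 counts. Its 76.3 and 76.4 CPM were the closest pair of values among the 10 genes. The plot of CPM by library shows these values with their counting error at 522 to 4002 counts per gene, and is meant for comparing the libraries within a gene, not the genes.

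**Figure D1:**
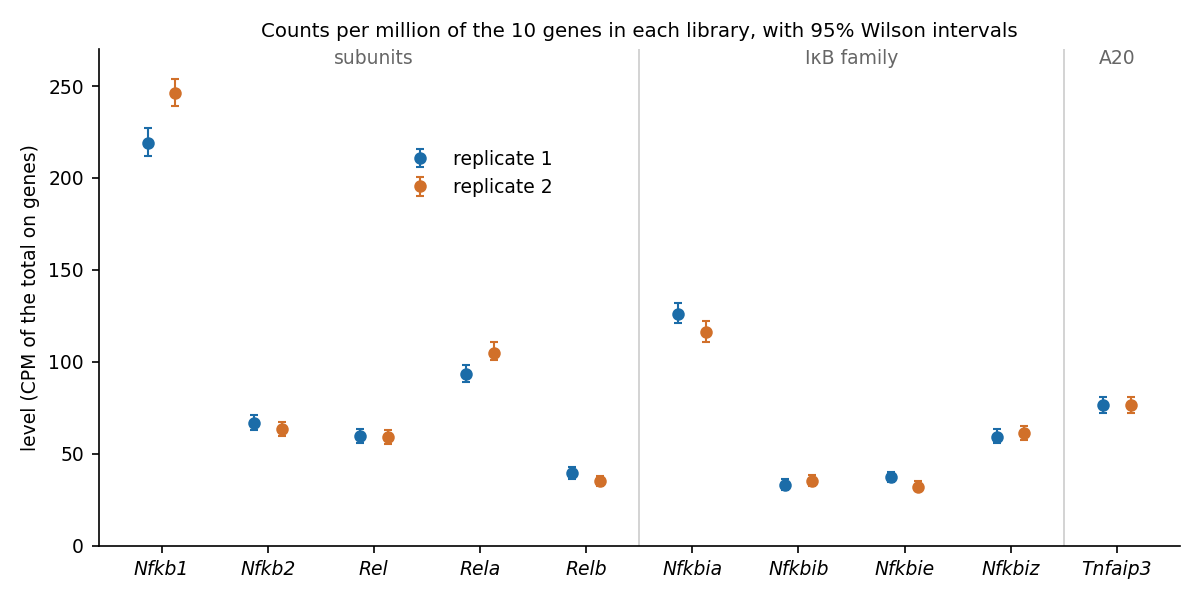
Level of each of the 10 genes in CPM of the total on genes (vertical axis) in replicate 1 (blue) and replicate 2 (orange), with Wilson 95% confidence intervals that cover counting error only. *Nfkb1* is at 219 and 246 CPM, *Nfkbia* and *Rela* lie between 93.4 and 126 CPM, and the other 7 genes lie between 32.1 and 76.4 CPM.

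Some of these counts are less certain than others. In GENCODE M21, the exons of *Nfkb2* share 531 bases with the non-coding *AC114539.1* and 299 bases with *Psd*, which had 125 and 124 counts, both on the opposite strand. The exons of *Nfkbib* share 314 bases with *Ccer2*, with 5 and 11 counts, and 42 bases with *Sirt2*, with 747 and 757 counts, both on the opposite strand. The strand setting of the counting is not given in the sources used here, so reads from these bases cannot be assigned to a strand. Of the stretches of 50 bases, the read length, in the transcripts of *Nfkb2* and *Nfkbib*, 14.9% and 12.6% also occur in transcripts of other genes on either strand. These are from 2 other genes for *Nfkb2* and 1 for *Nfkbib*, so they may be the overlaps just named and not a further limit. For the other 8 genes the share of such stretches was from 0% to 0.674%.

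CPM does not correct for the length of a gene, so the genes were compared with each other as CPM per kb of the union of their annotated exons. On this scale *Nfkbia* was the highest, at 78.3 and 72.2 CPM per kb, or 75.3 ± 4.34 (SD, n = 2). It was above 96.2% of the 10376 protein-coding genes that had at least 1 CPM in both libraries. *Rela* followed at 32.4 ± 2.78 CPM per kb and *Nfkb1* at 19.3 ± 1.58 CPM per kb (SD, n = 2). Then came *Nfkbib*, *Nfkb2*, *Nfkbiz*, *Nfkbie*, *Tnfaip3*, *Relb*, and *Rel*, from 15.7 CPM per kb down to 7.95 CPM per kb. All 10 genes were above the median of these protein-coding genes, 7.30 CPM per kb, and *Rel* was above 52.8% of them. The values of the 2 libraries were separate between neighbours in this order, except between *Nfkbiz* and *Nfkbie* and between *Nfkbie* and *Tnfaip3*. With 2 values per gene no test was made.

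This order depended on the length used, and the ranks among all protein-coding genes were made with the union of exons only. The union of exons of *Nfkb1* is 12061 bases long over 10 annotated transcripts, while its longest transcript has 4149 bases and its coding sequence 2913. Per kb of the longest transcript *Nfkb1* was at 56.1 ± 4.59 CPM per kb and *Rela* at 36.6 ± 3.15 CPM per kb (SD, n = 2), so that *Nfkb1* and *Rela* changed places. *Rel*, with a single annotated transcript of 7466 bases and a coding sequence of 1764, was the lowest by the first 2 lengths and number 4 of 10 per kb of coding sequence, at 33.7 ± 0.221 CPM per kb (SD, n = 2). Of the 45 pairs of genes, 42 kept their order with the longest transcript and 31 with the coding length. *Nfkbia* was the highest by all 3 lengths, at 76.8 CPM per kb of the longest transcript and 129 CPM per kb of coding sequence.

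**Figure D2:**
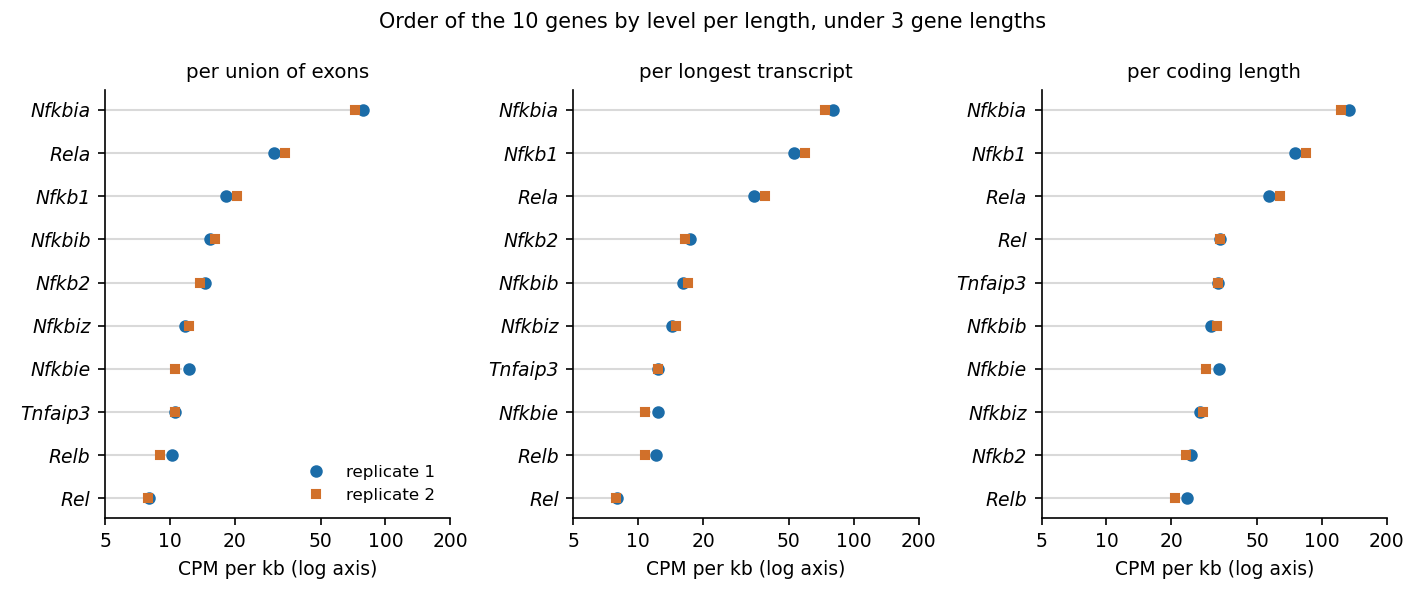
CPM per kb (log axis) of the 10 genes in replicate 1 (blue circles) and replicate 2 (orange squares), sorted by the mean, with the length taken as the union of exons, the longest transcript, or the coding sequence. *Nfkbia* is at the top in each panel, *Nfkb1* and *Rela* change places between the first and the other panels, and *Rel* moves from the last place to place 4 with the coding length.

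The make-up of the 5 subunit mRNAs was described as the share of each gene in their summed CPM per kb, in which the library size cancels out. Per union of exons, *Rela* made up 37.4% and 40.2%, *Nfkb1* 22.4% and 23.9%, *Nfkb2* 17.9% and 16.1%, *Relb* 12.5% and 10.5%, and *Rel* 9.83% and 9.26%. In each library *Rela* and *Nfkb1* together thus held more than the other 3 subunit genes. *Nfkb1* held the largest share, 42.4% and 44.6%, with the longest transcript, and 35.2% and 37.3% with the coding length. *Rela* was 1.67 and 1.68 times as high as *Nfkb1* per union of exons, but 0.650 and 0.654 times with the longest transcript and 0.753 and 0.757 times with the coding length. The 2 libraries were thus close in this ratio under each length, and the length decided which of the genes was higher. *Rela* was above *Rel* by every length, from 1.79 ± 0.166 times with the coding length to 4.60 ± 0.426 times with the longest transcript (SD, n = 2). *Relb* was at 0.675 ± 0.0298 of *Nfkb2*, its partner, per union of exons, and at 0.921 ± 0.0408 with the coding length (SD, n = 2).

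**Figure D3:**
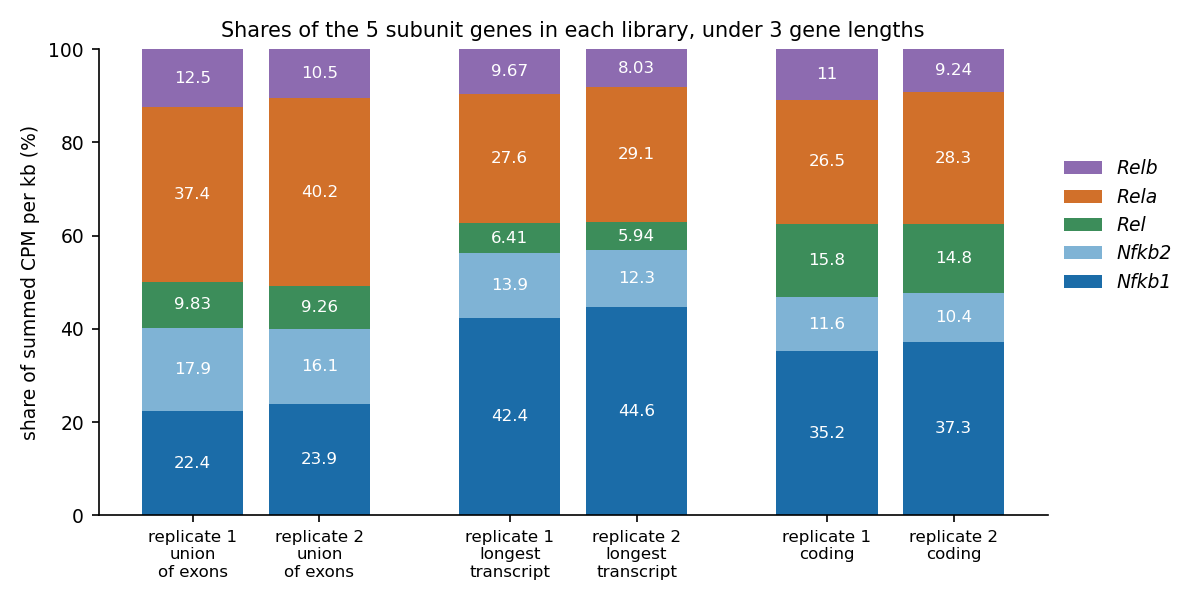
Share of each subunit gene in the summed CPM per kb of the 5 subunit genes (vertical axis, percent) in each library, for 3 gene lengths. *Rela* (orange) is the largest part per union of exons, with 37.4% and 40.2%, and *Nfkb1* (dark blue) with the longest transcript, with 42.4% and 44.6%.

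Among the 3 classical inhibitors, *Nfkbia* held 74.0% and 72.9% of their summed CPM per kb of exon, *Nfkbib* 14.4% and 16.4%, and *Nfkbie* 11.5% and 10.7%. With the coding length *Nfkbia* still held 67.6% and 66.7%. The level of *Nfkbia* was 0.963 and 0.845 of that of the 5 subunit genes together per union of exons, with a mean of 0.904 ± 0.0840 (SD, n = 2). This ratio fell to 0.597 ± 0.0624 with the longest transcript and to 0.585 ± 0.0567 with the coding length (SD, n = 2). It was higher in replicate 1 under each length. From the union of exons to the longest transcript, *Nfkb1* rose from 19.3 to 56.1 CPM per kb and *Nfkbia* from 75.3 to 76.8. With the coding length *Nfkb1* was at 79.9 and *Nfkbia* at 129 CPM per kb, and *Rel* rose from 7.95 to 33.7. *Nfkbia* was 2.34 ± 0.336 times (SD, n = 2) as high as *Rela*, whose product IκBα is best known to hold, and above it in both libraries by all 3 lengths.

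The libraries were then compared with each other by a two-sided exact binomial test on the counts of each gene, with Benjamini-Hochberg adjustment over the 15949 genes with at least 10 counts. This compares 2 libraries of a single group beyond counting error and is no test of a condition. Of the 10 genes, 0 passed both an adjusted p of 0.05 and a 2-fold limit, against 1.52% of all genes tested. In the same test 5 of the 10 had an unadjusted p under 0.05, as did 27.7% of all genes. At an adjusted p under 0.05 of any size, 2 of the 10 were called, against 16.3% of all genes. The shares over all genes, here and below, include genes with few counts and were not matched for level. In such genes this test can call only large differences. *Nfkb1* was higher in replicate 2 by 0.17 on the log2 scale (exact binomial test, adjusted p = 1.09e-05) and *Rela* by 0.18 (exact binomial test, adjusted p = 0.00562). When edgeR's exact test was run with the biological coefficient of variation set to 0.1, 0 of the 10 were called, against 0.464% of all genes, and none had an unadjusted p under 0.05, which 5.17% of all genes had. The common value estimated from these 2 libraries, taken as replicates, was 0.105, close to this setting. The test thus already allows for the usual difference between them, and 0 calls cannot show that the 10 genes are alike. The median absolute log2 ratio between the libraries was 0.10 for the 10 genes, as it was for the 4599 genes with a mean CPM in the same range, and 0.17 over all genes tested.

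These calls changed with the library size. With the total on genes the median log2 ratio of replicate 2 to replicate 1 over all genes was 0.08, and 82.7% of the genes called were higher in replicate 2. With edgeR's TMM library sizes the median was 0.00 and 48.1% of the genes called were higher. Under TMM, 3 of the 10 genes were called, against 10.6% of all genes, and all 3 were lower in replicate 2. These were *Nfkbia*, with a log2 ratio of -0.20 (exact binomial test, adjusted p = 0.000461), *Nfkbie*, with -0.29 (adjusted p = 0.0111 in the same exact test), and *Relb*, with -0.25 (adjusted p = 0.0284 in the same exact test). With DESeq2 size factors, *Nfkb1* was higher and *Nfkbia*, *Nfkbie*, and *Relb* lower, which makes 4 of the 10 against 10.9% of all genes. Without the ribosomal and mitochondrial RNA genes in the totals, *Nfkb1* was higher and *Nfkbia* and *Nfkbie* lower, 3 of the 10 against 11.4%. Under all 4 library sizes *Nfkb1*, *Rela*, and *Nfkbib* had log2 ratios above 0 and *Nfkb2*, *Rel*, *Relb*, *Nfkbia*, and *Nfkbie* below 0, while *Nfkbiz* and *Tnfaip3* lay within 0.08 of 0. The ratios of all 10 genes were between -0.29 and 0.18. The libraries also differed in *Xist*, with 34 and 25266 counts, and in the Y-linked *Ddx3y*, with 2450 and 0, which is the pattern of male cells in replicate 1 and female cells in replicate 2. Every SD and ratio between the replicates is thus also one between different animals and between the sexes, which cannot be told apart here, and the part of the ribosomal RNA share in the differences was not tested.

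**Figure D4:**
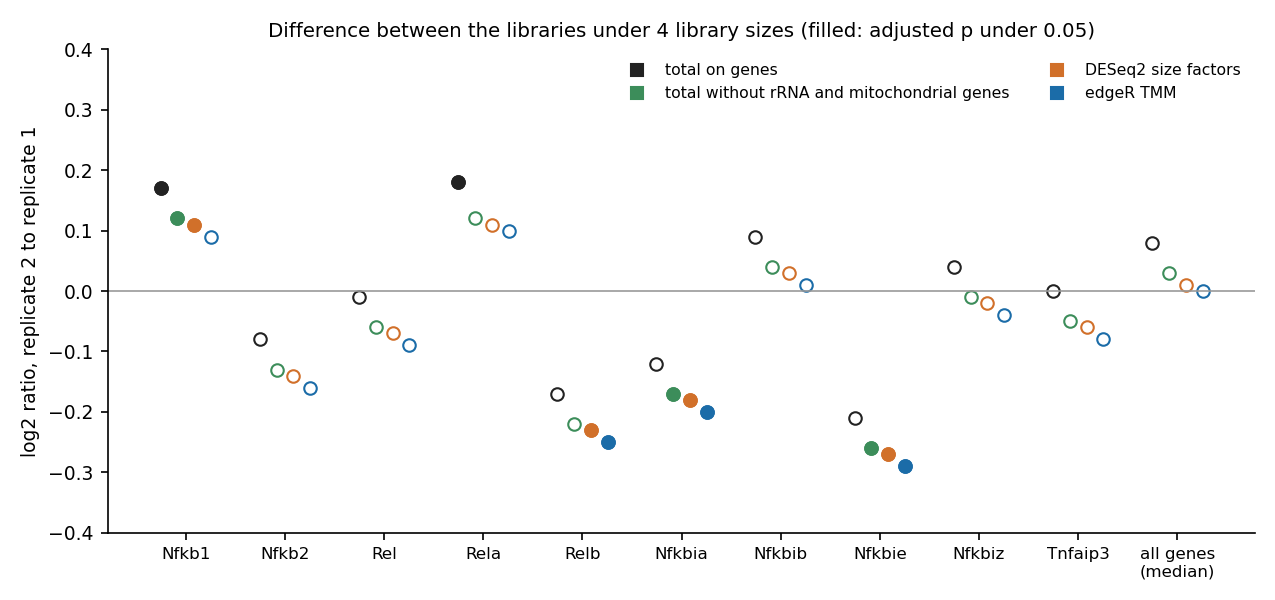
Log2 ratio of replicate 2 to replicate 1 (vertical axis) for each of the 10 genes and for the median of all genes tested, under 4 library sizes, with filled symbols at an adjusted p under 0.05 in the exact binomial test. With the total on genes only *Nfkb1* and *Rela* are filled, and with TMM only *Relb*, *Nfkbia*, and *Nfkbie*.

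To set the 10 genes in their pathway, 64 further genes in 8 lists were examined, of which 58 reached 1 CPM in both libraries. The median level was 10.8 CPM per kb of exon over the 64 genes, beside 13.1 CPM per kb over the 10. In each list the genes with the highest and the lowest level per kb are named, and other genes were named after their values were seen. Of the 3 other genes of the IκB family, *Nfkbid*, which encodes the nuclear protein IκBNS, was the highest at 18.8 CPM per kb, and *Nfkbil1* the lowest at 5.89. The 3 genes of the IKK complex lay between 7.76 CPM per kb for *Ikbkg*, the regulatory subunit NEMO, and 12.9 CPM per kb for *Chuk*, the kinase IKKα. *Ikbkb*, the kinase IKKβ, was at 12.4 CPM per kb of exon and at 104 CPM per kb of coding sequence, the highest of the 3 on that scale. In the module that links the antigen receptor to IKK, all 8 genes had at least 1 CPM, from 3.68 CPM per kb for *Tab3* to 53.3 CPM per kb for *Prkcq*, which encodes protein kinase C θ.

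The kinase of the non-canonical pathway, *Map3k14*, had 967 and 959 counts and was the lowest of its list at 8.92 CPM per kb, while *Traf3*, which keeps this kinase low in resting cells, was the highest at 18.2. The receptors that are best known to start this pathway outside T cells were hardly found, with 6 and 2 counts of *Ltbr* and 17 and 8 of *Cd40*. In the list of receptors, 10 of 13 had at least 1 CPM in both libraries, and *Cd27*, a TNF receptor family member of T cells, was the highest at 106 CPM per kb. *Tlr4* was the lowest, with 0 and 1 count. All 3 genes of the complex that makes linear ubiquitin chains were found, from 18.8 CPM per kb for *Rnf31* to 49.7 CPM per kb for *Rbck1*. Among the 9 partners of A20 and deubiquitinases, *Tnip1*, which binds A20, was the highest at 36.9 CPM per kb, and *Tnip3* the lowest, with 9 and 4 counts.

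Of the 20 textbook target genes, 18 had at least 1 CPM in both libraries. *Ltb*, which encodes lymphotoxin β, was the highest at 267 CPM per kb. *Bcl2a1a* had 0 counts in both libraries, where its near-identical relatives *Bcl2a1b* and *Bcl2a1d* had 36 and 24 counts in replicate 1, and reads shared between such copies are not counted. The early activation gene *Cd69* had 1942 and 1617 counts, and *Icam1* had 1652 and 1410. *Tnf* had 192 and 170 counts and *Il2ra*, which encodes CD25, had 49 and 56.

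Of these 64 genes, 0 passed the 2-fold limit and an adjusted p of 0.05 between the libraries in the exact binomial test, against 1.52% of all genes. Without the fold limit 14 of the 61 genes tested were called, or 23.0%, against 16.3% of all genes, with 9 higher and 5 lower in replicate 2. With TMM, 12 were called, or 19.7% against 10.6% of all genes, with 3 higher and 9 lower. With DESeq2 size factors and with totals free of ribosomal and mitochondrial RNA, 9 were called each, or 14.8% against 10.9% and 11.4% of all genes, with 3 higher and 6 lower. Again the shares over all genes were not matched for level. *Cd28*, *Otulin*, and *Ccl5* were called as higher in replicate 2 under all 4 library sizes, by 0.37, 0.46, and 0.57 on the log2 scale with the total on genes. *Tab2*, *Rnf31*, *Tnip1*, *Tnip2*, *Cd27*, and *Traf1* were also higher under all 4, but were called only with the total on genes. *Il18r1*, *Cd69*, *Icam1*, *Tnfrsf25*, and *Ltb* were called as lower under all 4, with log2 ratios of -0.24, -0.22, -0.19, -0.46, and -0.07 with the total on genes. A match to the κB consensus was found in 17 of the 49 genes of the lists that have a promoter window. This was 34.7%, against 9.55% of all genes in the promoter table, which were not matched for windows per gene or for base content. Of the 16 textbook target genes with a window, 5 had a match, *Ltb* among them. Matches were also found in 2 of 3 other IκB genes and in 4 of 6 A20 partners and deubiquitinases with a window. The antigen receptor module had 2 of 5, the non-canonical module 1 of 5, and the receptors 3 of 10. The lists of the IKK complex and of the linear ubiquitin complex had none, with only 2 genes in each that have a window.

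**Figure D5:**
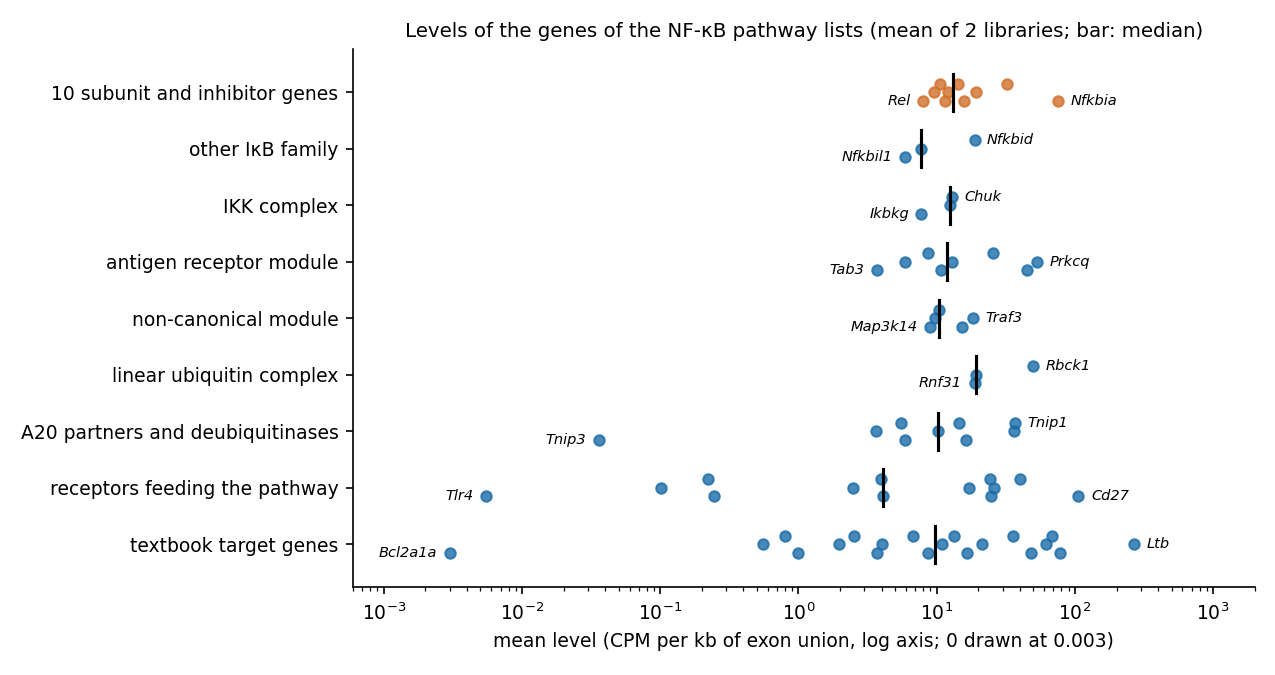
Mean CPM per kb of exon over both libraries (horizontal log axis) for each gene of the NF-κB pathway lists, with the median of each list as a black bar and the highest and lowest genes named. The 10 subunit and inhibitor genes (orange) lie between 7.95 for *Rel* and 75.3 for *Nfkbia*, and the receptors and target genes spread most, down to *Tlr4* and *Bcl2a1a*.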

How the data were processed

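RNA of sorted CD4- mature thymocytes was sequenced by the authors as single-end 50-bp reads of poly(A) libraries (NEBNext kit), which they aligned to mm10 by TopHat 2.1.1 and counted per gene by HTSeq 0.6.1. The deposited counts are whole reads per gene without normalization, and reads with several alignments were not counted. Annotation and strand setting are not given in the sources used here.

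The 10 genes and all lists were chosen with earlier results of these data known. CPM used the total on genes, without the lines of reads of no gene (55.9% of uniquely aligned reads). Lengths, positions and 50-base windows came from GENCODE M21 (GRCm38), which matched 46394 of 48321 symbols, and promoter windows from RefSeq (GRCm38.p6). The libraries were compared gene by gene with an exact binomial test, two-sided (scipy 1.17.1), and Benjamini-Hochberg adjustment (statsmodels 0.14.6), on genes with at least 10 counts over both. It was run on simulated counts that held counting error alone. That run cannot show how often the test calls genes where libraries differ by more than counting error. Log2 ratios added 0.5 to each count. Named were the 10 genes and, per list, the highest and lowest per kb and any that differed 2-fold, and other genes were named after their values were seen. No genes of similar pattern were sought, since 2 libraries give a single ratio per gene. Wilson intervals (95%) and the 3-count floor describe counting error alone, because PCR reads that carry no molecular identifier are not independent. The labels do not say which mice the replicates came from, and *Xist* and *Ddx3y* differ between them as between a female and a male. Alternatives were edgeR 4.0.16 TMM and DESeq2 1.42.0 library sizes, library totals that leave out 392 genes of mitochondrial or ribosomal RNA, other lengths, count minimums and CPM thresholds, single replicates, and the exact test of edgeR with a biological coefficient of variation set to 0.1. Python 3.11.15 and R 4.3.3 were used.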

Additional observations from a re-analysis of the deposited data

How the results depend on the processing

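Totals that leave out mitochondrial and ribosomal RNA are smaller, and with them the 10 levels moved up beyond 1 SD, to 269.7 CPM for *Nfkb1*, 75.4 for *Nfkb2*, 68.8 for *Rel*, 115 for *Rela*, 43.2 for *Relb*, 141 for *Nfkbia*, 39.6 for *Nfkbib*, 40.2 for *Nfkbie*, 69.8 for *Nfkbiz*, and 88.5 CPM for *Tnfaip3*. TMM and DESeq2 sizes moved none of these means by 1 SD. They raise the values of 1 library while they lower those of the other, so a mean of 2 can hardly move. Shares of the subunit genes moved with the length, to 43.5% (longest transcript) and 36.3% (coding length) for *Nfkb1* from 23.1%, to 13.1% and 11.0% for *Nfkb2* from 17.0%, to 6.17% and 15.3% for *Rel* from 9.54%, to 28.4% and 27.4% for *Rela* from 38.8%, and to 8.85% and 10.1% for *Relb* from 11.5%. The ratio of *Nfkbia* to the 5 subunit genes moved to 0.597 and 0.585 from 0.904. Of 45 pairs, 42 kept their order with the longest transcript, 31 with the coding length, and 44 with either replicate left out. Leaving out a replicate cannot move a mean of 2 by more than 1 SD, and gave 219 to 246 CPM for *Nfkb1* and 116 to 126 CPM for *Nfkbia*. The number of genes that differed between the libraries, 242 at 2-fold, was 197 with TMM, 198 with DESeq2 size factors, 55 with at least 100 counts, and 60 with edgeR's exact test, and 0 of the 10 genes were among them under each of these settings. At an adjusted p alone, 2596 genes became 1688 with TMM and 74 with edgeR's exact test, and the 2 of the 10 became 4 with DESeq2 size factors and 0 with edgeR's exact test. Of the 64 pathway genes, 58 passed 1 CPM, and the counts at 0.5 and 5 CPM were within 1.5 times of this. No paired analysis was possible because there is a single group. At these depths a gene under 0.185 CPM cannot be shown.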
